A study of Mus musculus with 6 samples.

Results

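The transcripts of 10 AP-1 and immediate early genes were followed across 6 conditions of the mouse macrophage line RAW264.7. The 10 genes were chosen by name and were all present among the 24062 genes of the count tables: Fos, Fosb, Fosl1 and Fosl2 of the Fos family, Jun, Junb and Jund of the Jun family, and the immediate early genes Egr1, Atf3 and Ier3. The cells were left unpolarized (M0), polarized for 24 h with LPS at 100 ng/mL and IFN-γ at 20 ng/mL (M1), or polarized for 24 h with 20 ng/mL IL-4 (M2). The irradiated counterparts RM0, RM1 and RM2 received 10 Gy of gamma rays from a caesium source and were incubated for another 24 h. The labels give no genotype change, and all 6 groups share the parental line. Each condition was 1 RNA library, made from RNA of 5 pooled wells, so no condition has a replicate of its own. The sources used here do not state whether the non-irradiated cells were kept for the further 24 h, so irradiation and time in culture cannot be told apart. The labels give bone marrow as the tissue beside the name of the cell line.

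AP-1 is a transcription factor made of pairs of basic leucine zipper (bZIP) proteins. Jun proteins pair with each other or with Fos proteins, whereas Fos proteins need a Jun partner to bind DNA stably. Immediate early genes are transcribed within minutes of a stimulus, without new protein synthesis, through kinases such as ERK, JNK and p38 and factors such as SRF and CREB. In macrophages, LPS is known to induce many of them rapidly and for a short time, and ionizing radiation is a known inducer of Jun, Egr1 and Atf3. The libraries were made after the treatments had acted for a day or more, so an early peak was not sampled.

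The counted reads ranged from 17894937 to 18870516 per library, and 11574 genes reached 10 counts in at least 3 libraries. All 10 genes passed this filter, which Fosb passed with the lowest counts (63 to 117) and Ier3 with the highest (12058 to 26107). Levels are given as scaled CPM, the usual CPM measure of counts relative to the library total, with totals corrected by the TMM method for differences in RNA composition. All 8 macrophage markers found in the tables were expressed. Their summed level was 30506 (M0), 21813 (M1), 26016 (M2), 37272 (RM0), 25478 (RM1) and 31931 (RM2) scaled CPM, lowest in M1 and RM1. In the test for an M1 effect described below, Csf1r (-1.07) and Lyz2 (-0.82) passed lower and Fcgr1 (2.63) higher on the log2 scale. The other 5 did not pass, where 47.6% of all genes did. The 4 T cell and 4 epithelial markers had 3 counts or fewer in every library, and of the 4 B cell markers only Cd79a reached 4. Among fibroblast and neutrophil markers, Dcn counts were 113 (M0), 627 (M1) and 726 (RM1) and those of S100a8 were 4580, 32464 and 51228. Lum counts were 8, 14 and 34 in the same order, and those of Col1a1 were 6, 1 and 0. Col1a2 and Col3a1 had 0 in every library and S100a9 had 1 to 19. Of 6 M1 markers 5 rose in M1, with Nos2 at 14393 counts in M0 and 169925 in M1. Of 4 tested M2 markers all rose in M1 and 1, Cish, in M2. The M2 marker Arg1 did not pass the filter, with counts of 0 (M0), 5 (M1), 31 (M2), 2 (RM0), 1 (RM1) and 89 (RM2). Retnla and Chil3 had 0 in every library. Dcn, Lum and S100a8 rose in the same libraries as the M1 changes reported here, and the part of other cells in those changes was not tested. In a bulk library, fewer cells that express a gene and less RNA per cell cannot be told apart.

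Fos, the prototype of the Fos family, lies on chromosome 12 of GRCm38 (85473901 to 85477270, plus strand, NM_010234). Fosl2, which encodes Fra-2, lies on chromosome 5 (32136472 to 32157839, plus strand, NM_008037), and Ier3, a stress-induced gene linked to apoptosis and NF-κB control, on chromosome 17 (35821713 to 35822911, plus strand, NM_133662). The 250 bases before the RefSeq start (GRCm38.p6) are shown for these 3 genes because they are the members past the M1 test in which a match to the kappa B motif, the site of NF-κB, was found. Windows of 8 of the 10 genes were searched. For Fosl1 none was at hand, and that of Egr1 was left out. Capitals mark matches to the kappa B motif and, near the end of the Fos window, to the TATA box TATAAA.
Fos, chr12:85473640-85473889, plus strand: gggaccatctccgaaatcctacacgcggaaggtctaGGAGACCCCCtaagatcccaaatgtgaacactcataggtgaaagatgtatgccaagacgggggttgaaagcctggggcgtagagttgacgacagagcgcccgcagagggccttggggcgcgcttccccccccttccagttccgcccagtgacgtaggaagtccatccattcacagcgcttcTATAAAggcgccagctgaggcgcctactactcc
Fosl2, chr5:32136222-32136471, plus strand: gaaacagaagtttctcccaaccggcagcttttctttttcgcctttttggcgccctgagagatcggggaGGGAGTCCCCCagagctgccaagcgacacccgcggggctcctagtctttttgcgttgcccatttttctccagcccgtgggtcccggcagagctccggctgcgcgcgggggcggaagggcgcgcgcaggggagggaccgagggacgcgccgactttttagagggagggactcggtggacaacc
Ier3, chr17:35821463-35821712, plus strand: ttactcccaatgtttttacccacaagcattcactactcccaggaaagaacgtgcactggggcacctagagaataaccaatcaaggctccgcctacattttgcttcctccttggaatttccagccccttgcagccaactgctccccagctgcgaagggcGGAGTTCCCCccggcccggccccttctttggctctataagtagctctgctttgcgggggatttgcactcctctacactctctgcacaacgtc
The kappa B match of Fos ran from base -214 to -205 before the start and its TATA box from -33 to -28. Fosl2 held a pair of overlapping kappa B matches between -182 and -172, and Ier3 held 1 from -92 to -83. Both strands were searched with 7 motifs, for exact matches within the 250 bases only, so variant or more distant sites would be missed. The window of Jund lies before its RefSeq start at 70697739, whereas its GENCODE gene starts at 70698949. A kappa B match was present in 4 of the 8 windows (Fos, Fosb, Fosl2 and Ier3) and in 7.008% of 27025 promoter windows of the same length. TATAAA was present in 1 of the 8 and in 12.966% of all windows. The letters of the TRE (TGANTCA, 6.868% of all windows), the CRE (TGACGTCA, 1.624%), the CArG box (1.399%), the EGR site (GCGTGGGCG, 0.54%) and the GAS element (TTCNNNGAA, 7.179%) were in none of the 8 windows. A match is a string of letters and not a measured binding site, and genes on both sides of the M1 comparison, lower (Fos, Fosl2) and higher (Ier3), carried one.

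3 Fos family transcripts were lower in both libraries with LPS and IFN-γ than in all 4 others. Fos was at 140.5 (M0), 69.7 (M1) and 152 (M2) scaled CPM without irradiation and at 186 (RM0), 106 (RM1) and 207 (RM2) after it. The values of M1 and RM1 lay below those of the other 4 libraries without overlap, and within each state the irradiated library was the higher. Over the 6 libraries, the M1 effect on Fos was a log2 fold change of -0.91 ± 0.12 (SE), 1.88-fold lower (edgeR quasi-likelihood test, Benjamini-Hochberg adjusted p = 0.000183). This fit takes irradiated and non-irradiated libraries as replicates of polarization and the 3 states as replicates of irradiation, and so assumes the same effect in each.

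Fosl2 followed nearly the same order. Its scaled CPM were 331 (M0), 162 (M1), 319.7 (M2), 412 (RM0), 269 (RM1) and 419 (RM2). M1 and RM1 were again the lowest, and again each irradiated library was above its non-irradiated counterpart. The M1 effect on Fosl2 was -0.82 ± 0.14 on the log2 scale (edgeR quasi-likelihood test, adjusted p = 0.000848), 1.76-fold lower. Fosl1, which encodes Fra-1 (chromosome 19, 5454413 to 5455938, plus strand, NM_010235), showed the deepest fall of the family. Its scaled CPM fell from 62.5 (M0) to 15.8 (M1), with 58.8 in M2, and were 66.0 (RM0), 28.3 (RM1) and 61.4 (RM2) after irradiation. The 4 libraries without LPS and IFN-γ spanned only 58.8 to 66.0, and both M1 libraries lay far below them. The M1 effect on Fosl1 was -1.57 ± 0.18 on the log2 scale, 2.97-fold lower (edgeR quasi-likelihood test, adjusted p = 7.51e-05). The listed span of Fosl1 covers 18.167% of its GENCODE gene and an exon of Ccdc85b lies on the opposite strand. The strand setting of the counting is not given in the sources used here, and Ccdc85b had 140 to 268 counts per library.

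Fosb, a family member best known from lasting responses of neurons (chromosome 7, 19302696 to 19310045, minus strand, NM_008036), had the fewest counts and the lowest level per kb of the 10. It had 103 (M0), 63 (M1), 82 (M2), 117 (RM0), 97 (RM1) and 100 (RM2) counts, which is 4.04 to 5.97 scaled CPM. Its M1 and RM1 levels fell within the range of the other libraries. At this depth no difference was detectable in any of the 3 fits (adjusted p from edgeR's quasi-likelihood test 0.585 for M1, 0.422 for irradiation and 0.601 for M2), and the 95% counting interval of M1 against M0 ran from -0.761 to 0.181 on the log2 scale.

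**Figure D1:**
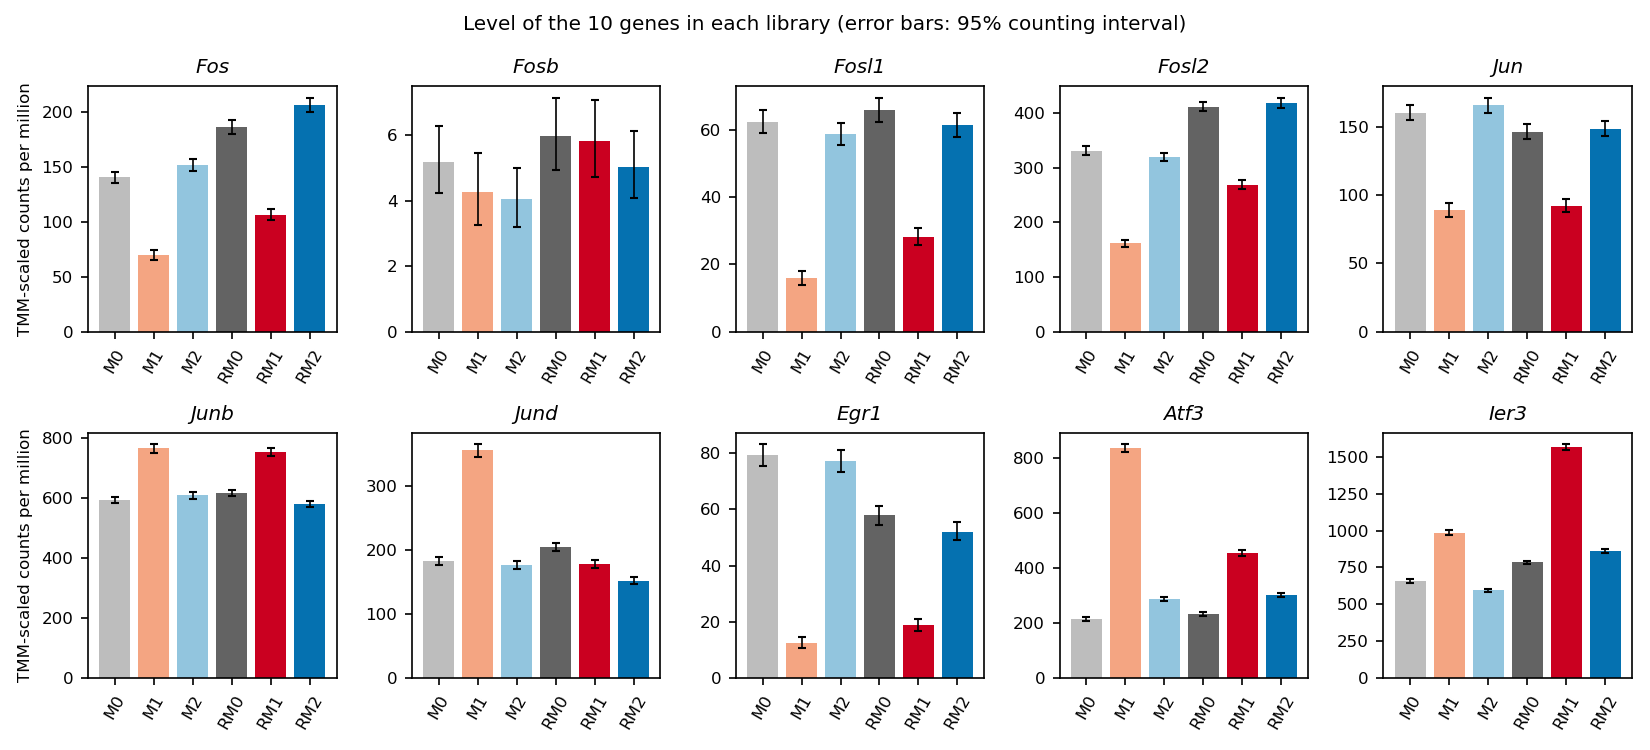
Level of the 10 genes in each of the 6 libraries in scaled CPM (linear axes that start at 0, 1 panel per gene), with error bars for the 95% counting interval of that library. Egr1, Fosl1, Fos, Fosl2 and Jun were lowest in M1 and RM1, Atf3, Junb and Ier3 were highest there, and Jund was high in M1 (356) but not in RM1 (178).

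Of the 3 Jun family genes, Jun alone passed the test for an M1 effect. Jun itself, which like Junb and Jund can pair with Fos proteins (chromosome 4, 95049036 to 95052222, minus strand, NM_010591), was at 160.3 (M0), 88.9 (M1) and 166 (M2) scaled CPM and, irradiated, at 146 (RM0), 92.2 (RM1) and 149 (RM2). Both M1 libraries lay below the other 4, and the M1 effect was -0.76 ± 0.12 on the log2 scale, 1.69-fold lower (edgeR quasi-likelihood test, adjusted p = 0.000567). Junb, which is weaker than Jun as an activator and can oppose it (chromosome 8, 84976909 to 84978748, minus strand, NM_008416), was at 594 (M0), 766 (M1) and 609.7 (M2) scaled CPM and, irradiated, at 618 (RM0), 756 (RM1) and 581 (RM2). Its M1 and RM1 levels lay above the other 4 without overlap, while its M1 effect of 0.33 ± 0.13 did not pass (edgeR quasi-likelihood test, adjusted p = 0.0598). DESeq2 passed Junb in this comparison, and with scaling by library totals its sign turned (-0.015). The listed span of Junb covers 42.739% of its GENCODE gene, where exons of Prdx2 lie on the opposite strand, with 2948 to 4274 counts per library. Exons of Junos overlap Jun, and those of Gm11175 overlap Jund, in the same way.

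Jund, the family member that resting cells are known to express (chromosome 8, 70697739 to 70700616, plus strand, NM_010592), stood apart in the M1 library alone. Scaled CPM of Jund were 184 (M0), 356 (M1), 177 (M2), 204 (RM0), 178 (RM1) and 152 (RM2). M1 was above the other 5, whose range of 152 to 204 includes RM1. M1 exceeded M0 by 0.96 on the log2 scale (95% counting interval 0.895 to 1.02), whereas RM1 lay below RM0 (-0.20, interval -0.267 to -0.129). The fit over all 6 libraries, which assumes 1 effect for both pairs, gave 0.39 ± 0.22 for the M1 effect on Jund and did not pass (edgeR quasi-likelihood test, adjusted p = 0.153).

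Among the other immediate early genes, Egr1 fell and Atf3 and Ier3 rose in M1. Egr1, a zinc finger factor induced through SRF (chromosome 18, 34861207 to 34864956, plus strand, NM_007913), was at 79.2 (M0), 12.5 (M1), 77.2 (M2), 57.8 (RM0), 18.9 (RM1) and 52.1 (RM2) scaled CPM. M1 and RM1 lay well below the other 4, and RM0 and RM2 were below M0 and M2. The M1 effect of -2.09 ± 0.23 on the log2 scale, 4.26-fold lower, had the greatest size among the 10 genes (edgeR quasi-likelihood test, adjusted p = 5.79e-05). Atf3, a stress-induced bZIP repressor that restrains LPS-driven cytokine genes (chromosome 1, 191170297 to 191183333, minus strand, NM_007498), was at 215 (M0), 835 (M1), 286 (M2), 233 (RM0), 454 (RM1) and 300.4 (RM2) scaled CPM. Both M1 libraries were the highest, with the irradiated one well below the non-irradiated one. The M1 effect on Atf3 was 1.49 ± 0.22 on the log2 scale, 2.80-fold higher (edgeR quasi-likelihood test, adjusted p = 0.000314). The listed span of Atf3 covers 27.306% of its GENCODE gene. Ier3 was at 659 (M0), 984 (M1), 594 (M2), 784 (RM0), 1566 (RM1) and 862 (RM2) scaled CPM. RM1 was the highest and M1 the next, and each irradiated library was above its counterpart. Its M1 effect was 0.79 ± 0.15 on the log2 scale, 1.73-fold higher (edgeR quasi-likelihood test, adjusted p = 0.0017). With scaling by library totals, under which the median of all genes was -0.36, the M1 effect on Ier3 was 0.44 (edgeR quasi-likelihood test, adjusted p = 0.0332).

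In all, 7 of the 10 genes passed the test for an M1 effect, 5 lower (Fos, Fosl1, Fosl2, Jun and Egr1) and 2 higher (Atf3 and Ier3). The background is broad, since 47.6% of the 11574 genes tested passed, 23.3% higher and 24.3% lower. The median log2 fold change was -0.46 over the 10 genes and -0.02 over all genes tested. By levels alone, 5 of the 10 lay lower in M1 and RM1 than in the other 4 libraries, 3 lay higher (Junb, Atf3 and Ier3) and 2 overlapped (Fosb and Jund), where 61.8% of all genes did not overlap, 29.6% higher and 32.1% lower. DESeq2 passed 8, with Junb added, beside 38.6% of all genes. Without M2 and RM2 in the fit 7 passed, beside 37.7% of all genes tested there.

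M1 against M0 and RM1 against RM0 share no library and can be set side by side. At 2-fold, 5 of the 10 genes differed between M1 and M0, Atf3 higher and Fos, Fosl1, Fosl2 and Egr1 lower, where 22.7% of all genes measured did so, 9.37% higher and 13.3% lower. Between RM1 and RM0, 2 differed at 2-fold, Fosl1 and Egr1, both lower, where 14% of all genes did so and 7.87% were lower. For Egr1 the log2 fold change was -2.65 without irradiation (95% counting interval -2.89 to -2.44) and -1.61 with it (-1.80 to -1.43). Fosl1 gave -1.97 (-2.19 to -1.78) and -1.22 (-1.38 to -1.07), and Atf3 gave 1.96 (1.91 to 2.01) and 0.96 (0.907 to 1.01). The counting intervals of these 3 genes did not overlap between the pairs, and the value in the irradiated pair was the nearer to 0. The same held for Fos, Fosl2 (-1.03 and -0.61), Junb (0.37 and 0.29) and Jund (0.96 and -0.20), the last with a change of sign. The intervals of Jun met at -0.757, and those of Fosb overlapped. The share of all genes with such intervals was not computed. Ier3 went the other way, from 0.58 (0.545 to 0.613) to 1.00 (0.97 to 1.03). These calls sit close to the threshold for several genes: Fos was at -1.01 and Fosl2 at -1.03 in M1 against M0, just past it, while Ier3 (1.998-fold), Atf3 (0.96) and Fos (-0.81) in RM1 against RM0 fell short. With DESeq2 size factors, Fos (-0.98) and Fosl2 (-0.9997) fell short in M1 against M0, and Ier3 passed in RM1 against RM0 (1.01), where 22.4% and 14.1% of all genes passed. With library totals, Jun (-1.29) also passed in M1 against M0 and Fos (-1.06) in RM1 against RM0, where 30.4% and 17% of all genes passed, and in M1 against M0 Jund was at 0.51 and Ier3 at 0.14. The counting intervals leave out the spread between cultures, which 1 library per condition cannot give.

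**Figure D2:**
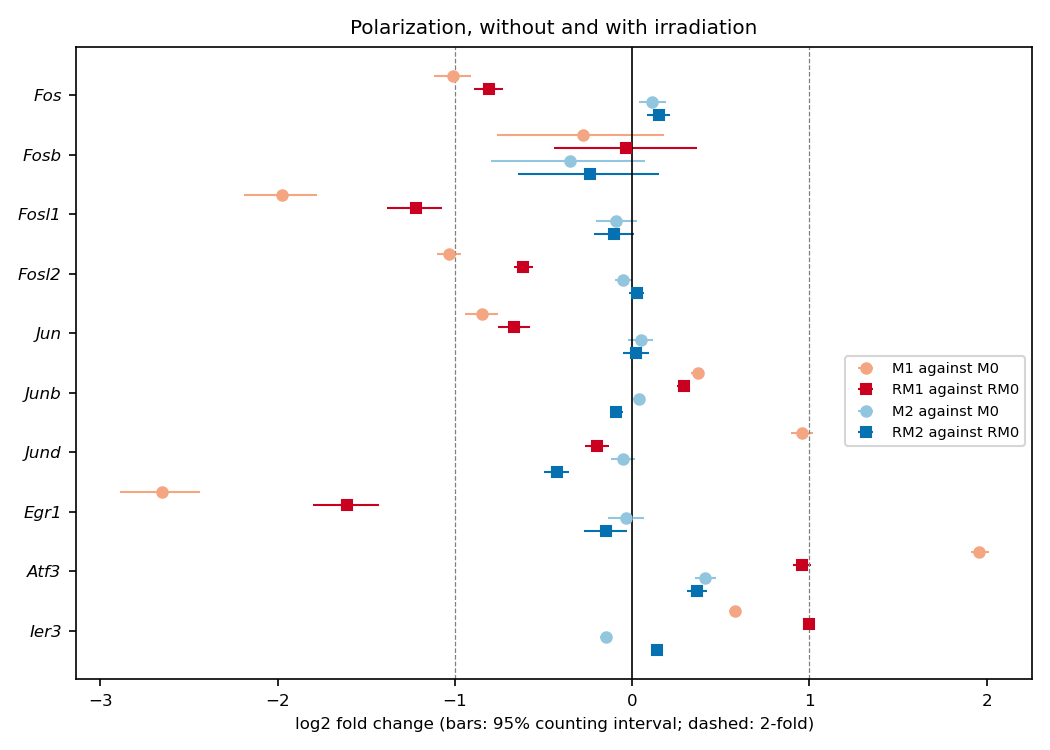
Log2 fold change of each gene for M1 against M0 and M2 against M0 (circles) and for RM1 against RM0 and RM2 against RM0 (squares). Bars are 95% counting intervals between 2 libraries and dashed lines mark 2-fold. Egr1, Fosl1 and Atf3 lie farthest from 0 in M1 and nearer to 0 in the irradiated pair, Jund is at 0.96 and -0.20, and all M2 values lie between -0.43 and 0.41.

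Within the Fos and Jun families the balance of transcripts differed between the states. Per kilobase of transcript, the summed Fos family level was 152 (M0), 67.4 (M1), 154 (M2), 188 (RM0), 108 (RM1) and 196 (RM2) scaled CPM per kb. The summed Jun family level was 489, 665, 495, 510.2, 554 and 459 in the same order. The Fos sum was lowest and the Jun sum highest in M1 and RM1. The ratio of Jun to Fos family level per kb was 3.21 (M0), 9.87 (M1), 3.22 (M2), 2.71 (RM0), 5.11 (RM1) and 2.34 (RM2). Junb made up 63.7% to 75.5% of the Jun family level per kb in every library, and Jun 10.3% in M0, 4.19% in M1 and 5.22% in RM1. Jund took 32.1% in M1 and 19.3% to 24.0% in the other 5 libraries. Within the Fos family, Fos held 43.8% to 49.9% and Fosl2 31.8% to 38.0% throughout, while Fosl1 held 22.0% in M0, 12.6% in M1 and 14.0% in RM1. These shares are descriptions of 1 library each and depend on the transcript length used. For Jund the listed span is 2878 bases and the annotated transcript 1668, and with the former the ratio was 2.91 in M0, 8.54 in M1 and 4.70 in RM1.

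**Figure D3:**
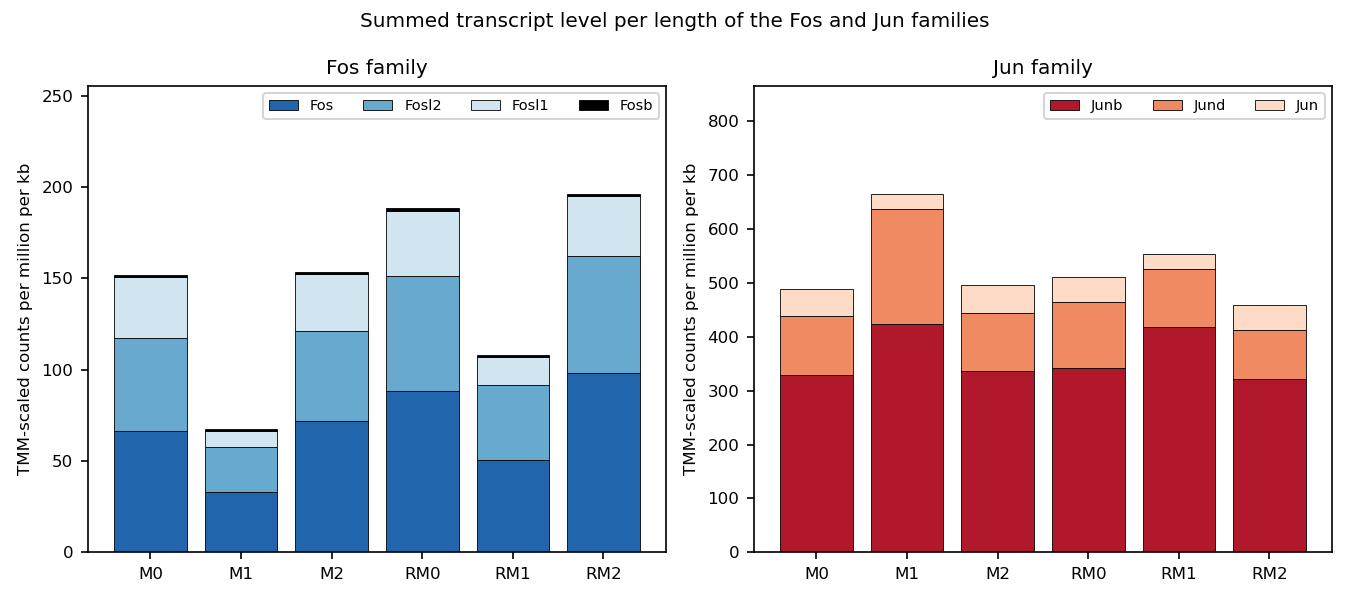
Summed level of the Fos family (left) and the Jun family (right) in each library, in scaled CPM per kb of transcript, with 1 coloured segment per gene and axes that start at 0. The Fos family sum is 152 in M0 and 67.4 in M1, and the Jun family sum 489 and 665, with Junb the main segment of every Jun bar.

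After irradiation, Fos, Fosl2 and Ier3 were each higher in 3 of 3 states, by less than 2-fold and with counting intervals above 0. Fosb (0.20, 0.44 and 0.31) and Fosl1 (0.08, 0.83 and 0.06) were also above 0 in the M0, M1 and M2 pairs. The counting intervals of Fosb included 0 in all 3 pairs, and those of Fosl1 in the M0 and M2 pairs. The share of all genes higher in 3 of 3 states was not computed. Fos was higher by 0.41 on the log2 scale in RM0 against M0 (95% counting interval 0.335 to 0.479), by 0.61 in RM1 against M1 (0.498 to 0.722) and by 0.44 in RM2 against M2 (0.375 to 0.511). Fosl2 was higher by 0.32, 0.73 and 0.39, and Ier3 by 0.25, 0.67 and 0.54. These were the 3 genes with the largest irradiation effects in the joint fit, at 0.48 ± 0.10 for Fos (1.40-fold), 0.48 ± 0.11 for Fosl2 and 0.49 ± 0.12 for Ier3. None of the 10 genes passed the adjusted threshold in edgeR's quasi-likelihood test, beside 0.475% of the 11574 genes tested, and the adjusted p was 0.0617 for Fos, 0.107 for Fosl2 and 0.129 for Ier3. These 3 had an unadjusted p under 0.05, as did 14.7% of all genes. DESeq2 passed these 3, beside 0.985% of all genes. Without M1 and RM1, 4 of the 10 passed, Fos, Fosl2 and Ier3 higher and Egr1 lower, beside 4.56% of all genes tested there, so that the outcome for these genes rests on which states are taken as replicates.

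In the 3 pairs taken singly, none of the 10 genes reached 2-fold, where 1.54% of all genes did so in RM0 against M0, 5.34% in RM1 against M1 and 1.97% in RM2 against M2. For the members other than Jun and Junb, the M1 pair gave the value farthest from 0, and with DESeq2 size factors Jund passed 2-fold there (-1.01), as did 5.34% of all genes. There Fosl1 was higher by 0.83 (95% counting interval 0.61 to 1.07), against 0.08 in M0 and 0.06 in M2. Jund and Atf3 were lower in RM1 than in M1, with log2 fold changes of -0.999 (-1.06 to -0.934) and -0.88 (-0.919 to -0.836). In the other pairs Jund was at -0.22 and 0.16 and Atf3 at 0.07 and 0.12. Egr1 was higher in RM1 than in M1 (0.59, interval 0.328 to 0.864) and lower in RM0 than in M0 (-0.45, interval -0.565 to -0.342) and in RM2 than in M2 (-0.57, interval -0.682 to -0.453). The M1 library enters both the polarization and the irradiation comparison, so values from these are not independent observations. Jun ranged from -0.16 to 0.05 and Junb from -0.07 to 0.06 over the 3 pairs. Fosb was at 0.20, 0.44 and 0.31, with all 3 counting intervals including 0.

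**Figure D4:**
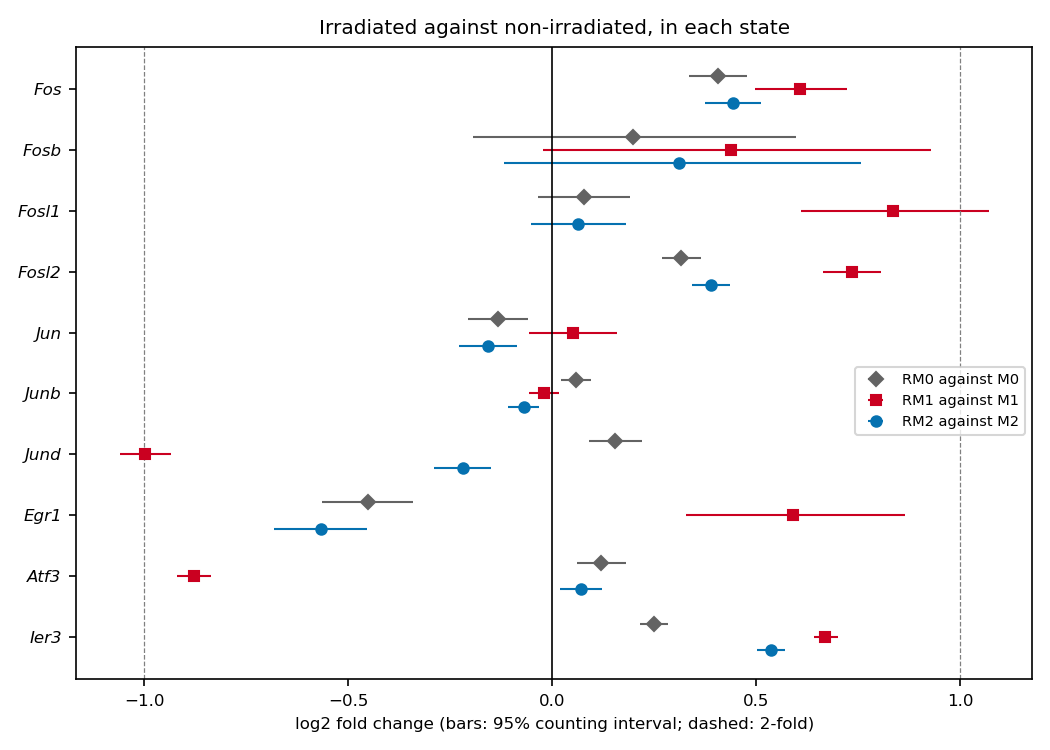
Log2 fold change of each gene in RM0 against M0 (diamonds), RM1 against M1 (squares) and RM2 against M2 (circles). Bars are 95% counting intervals between 2 libraries and dashed lines mark 2-fold. Fos, Fosl2, Ier3, Fosb and Fosl1 lie above 0 in all 3 pairs. The bars of Fosb include 0 in all 3 pairs and those of Fosl1 in the M0 and M2 pairs. Egr1, Atf3 and Jund lie on opposite sides of 0 in RM1 against M1 and RM0 against M0, with bars clear of 0.

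GC content moved with fold changes across all genes, so the members were also read with that trend removed. In RM1 against M1 the trend was 0.31 for the tenth of genes with the lowest GC content and -0.24 for the highest. Jund has a transcript with 67.2% GC, above 99.73% of the genes tested, and Junb has 62.6%. With the trend removed, Jund in RM1 against M1 moved from -0.999 to -0.63 and Junb from -0.02 to 0.25. Fosl1 went from 0.83 to 1.04 and became the only member past 2-fold in that pair, as were 4.64% of all genes with a GC value. In RM1 against RM0, removal put Jund at 0.15 in place of -0.20 and took Atf3 (1.05) and Ier3 (1.14) past 2-fold beside Fosl1 and Egr1, so that 4 of the 10 were past it, where 13.4% of all genes were. The values of Fos after removal were 0.39 in RM0 against M0, 0.66 in RM1 against M1 and 0.48 in RM2 against M2.

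**Figure D5:**
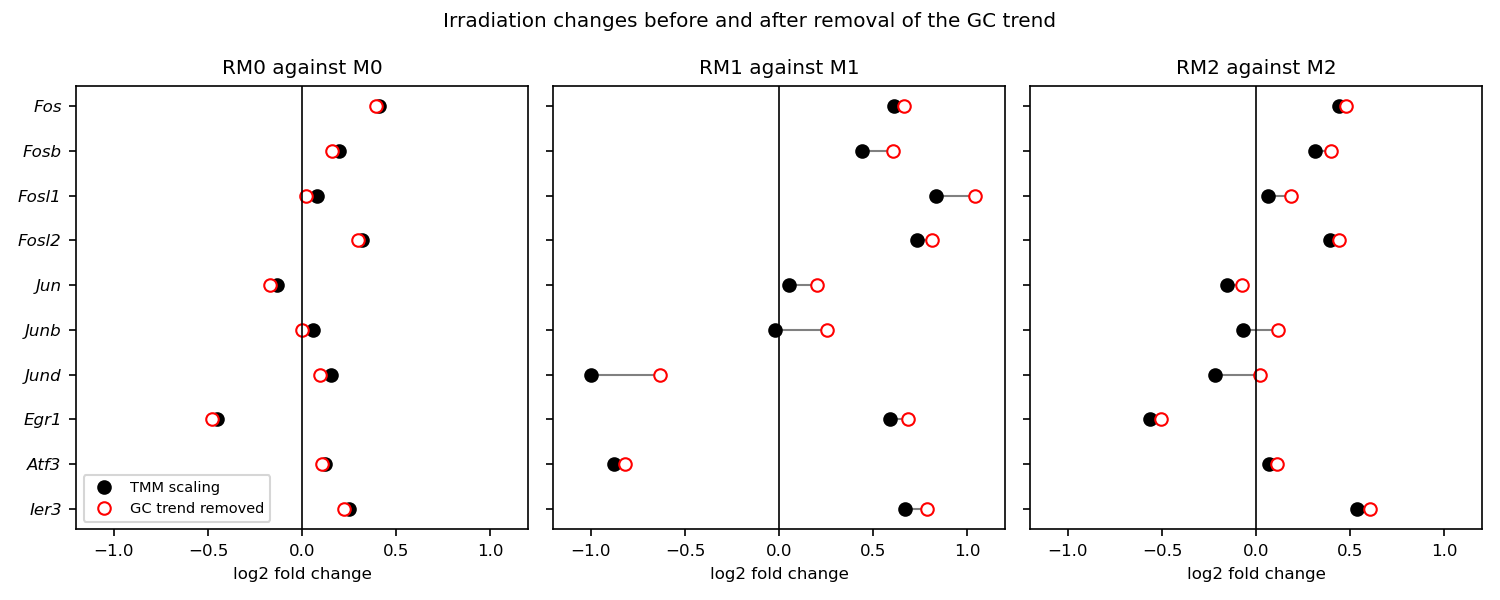
Log2 fold change of each gene in the 3 irradiation pairs with TMM scaling (filled circles) and after removal of the trend with transcript GC content (open circles). The shift is greatest for Jund in RM1 against M1, from -0.999 to -0.63, and small for Fos, Fosl2 and Atf3.

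With IL-4 none of the 10 genes differed from its control by more than 0.43 on the log2 scale. None of the 10 passed the M2 test (edgeR's quasi-likelihood test), beside 0.19% of all genes tested. An unadjusted p under 0.05 was found for 0 of them and for 10.1% of all genes, and DESeq2 passed 0 of them and 0.354% of all genes. At 2-fold 0 of 10 differed in M2 against M0 (1.44% of all genes) and 0 of 10 in RM2 against RM0 (2.61%). The largest positive value was that of Atf3, at 0.41 in M2 against M0 (95% counting interval 0.356 to 0.471) and 0.36 in RM2 against RM0 (0.308 to 0.42). Its M2 effect was 0.39 ± 0.21 (edgeR quasi-likelihood test, adjusted p = 0.531), and it passed only when M1 and RM1 were left out of the fit, beside 11.5% of all genes tested there. Jund was at -0.05 in M2 against M0 and at -0.43 in RM2 against RM0, and with the GC trend removed the latter was -0.0048.

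The wider pathway was read through lists of named genes, counted as risen or fallen where they passed edgeR's quasi-likelihood test for the M1 effect, beside the background of 47.6%. Of 9 tested genes in the list of bZIP partners, Batf2 rose by 4.13 on the log2 scale and Jdp2, a bZIP repressor of AP-1, fell by 1.28. Batf2 counts were 24 (M0), 575 (M1) and 72 (RM1), and its log2 fold change in RM1 against M1 was -3.14. Those of Jdp2 were 3209, 795 and 1483. Of 6 tested inhibitors and corepressors, 4 fell and none rose: Det1, part of a ligase complex that degrades Jun (-1.60), Jdp2, which both lists hold, the EGR corepressor Nab2 (-1.04) and the ligase subunit Fbxw7 (-0.51).

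Of 18 other immediate early genes tested, 6 rose and 6 fell in M1. The largest rises were those of Gadd45b, a stress-response gene (3.24), Zfp36, which encodes the mRNA-decay factor tristetraprolin (1.79), and the nuclear receptor Nr4a3 (1.72). The deepest falls were those of the pseudokinase gene Trib1 (-2.25), the antiproliferative gene Btg2 (-1.35) and the zinc finger factor Klf2 (-1.09). Trib1 counts were 836 (M0), 73 (M1), 911 (RM0) and 243 (RM1), and those of Gadd45b were 644, 7074, 735 and 3621. For both, RM1 lay between M1 and RM0. In RM1 against M1, Trib1 (1.54), Btg2 (1.35) and Nr4a3 (1.08) were past 2-fold higher, and Ier5l (-1.60) and Gadd45b (-1.14) past 2-fold lower.

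Of 16 kinases and factors upstream of these genes, 6 rose, led by the p38 target kinase Mapkapk2 (0.95), the ERK1 gene Mapk3 (0.69) and Mapk7 (0.50), and 1 fell, the SRF coactivator Mkl1 (-0.56). Of 12 AP-1 target genes, 7 rose, led by the protease inhibitor Timp1 (5.19), the collagenase Mmp13 (3.96) and the haem oxygenase Hmox1 (1.77), and 3 fell, the gelatinase Mmp9 (-1.84), the cyclin Ccnd1 (-0.63) and the protease Plau (-0.50). Many of these targets also answer to factors other than AP-1. The median log2 fold change was 0.81 for the targets, 0.09 for the upstream list, 0.19 for the other immediate early genes, 0.13 for the bZIP partners and -0.77 for the inhibitors, against -0.02 for all genes.

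A few of the listed genes passed the test for irradiation, where 0.475% of all genes tested did. The lists were chosen with earlier results of these data known, and whether their counts exceed that share was not tested. Nr4a1, an orphan nuclear receptor induced with the other immediate early genes, rose by 0.55 (edgeR quasi-likelihood test, adjusted p = 0.0452), and was the only gene to pass among 18 in its list. Among the 12 targets, 2 rose: Il1b, the interleukin-1 beta gene (0.79, adjusted p = 0.0146), and Ptgs2, the COX-2 gene (0.94, adjusted p = 0.0306, edgeR quasi-likelihood test). Ptgs2 counts went from 47271 (M0) to 71098 (RM0), from 74139 (M1) to 198747 (RM1) and from 53419 (M2) to 102108 (RM2). None of the bZIP partners, upstream genes or inhibitors tested passed there. Of 7 known radiation-response genes, 1 passed: Ccng1, a p53 target, rose by 0.81 (adjusted p = 0.0146, edgeR quasi-likelihood test). The other 6 did not pass, with values from -0.05 (Bax) to 0.89 (Phlda3), and Cdkn1a at 0.19.

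The genes most like each member in their pattern over the 6 libraries were found among 10180 genes averaging at least 50 counts, by the root mean square difference of the centred log2 levels. This was done for the 7 members whose levels spanned at least 1 on the log2 scale, a span that 30.4% of genes reached. Fos was nearest to Ets2, an ETS-family factor gene, Herc1 and Gng4 (0.0804 to 0.0921). Its nearest fellow member, Fosl2, was farther (0.107), though the 2 ran almost in parallel. Fosl2 was nearest to Rbak, Huwe1 and Herc2 (0.066 to 0.0768), Fosl1 to Trp53cor1, Gdpgp1 and AW209491 (0.0725 to 0.092), and Egr1 to Lrrc14, Rpgrip1l and Nes (0.124 to 0.148). Jund was nearest to Stoml1, Bri3 and Icam1 (0.0561 to 0.0775), Atf3 to Rsrp1, Dennd6b and Rgl1 (0.105 to 0.130) and Ier3 to Rdh11, Myo1e and Mfsd9 (0.0931 to 0.115). The nearest fellow member was also farther than these for Fosl2 (Fos, 0.107), Fosl1 (Fos, 0.327), Egr1 (Fosl1, 0.354), Jund (Junb, 0.309), Atf3 (Jund, 0.452) and Ier3 (Junb, 0.344). These are the closest of many candidates over 6 libraries that share the same scaling, and a like pattern says nothing of function or control.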

How the data were processed

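RNA-seq was measured in 6 libraries, 1 per condition. Per the labels, the authors used Trimmomatic 0.36, HISAT2 2.2.1 and HTSeq 0.11.3 with build mm10, and deposited raw read counts for 24062 RefSeq genes. In the files, 27 gene symbols had been turned into dates. The strand setting of the counting is not given in the sources used here.

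The members and lists were chosen with earlier results of these data known. Named genes were the 10 members, list genes among the 3 highest and 3 lowest passing fold changes, and the 3 nearest genes to each member. Genes reaching 10 counts in at least 3 libraries were tested with edgeR 4.0.16 (R 4.3.3): TMM scaling, quasi-likelihood test on state and irradiation (2 residual degrees of freedom, biological coefficient of variation 0.107), Benjamini-Hochberg adjustment over 11574 genes, threshold 0.05. SEs are the fold change divided by the square root of F. The p-values weigh each effect against the spread left between libraries standing in for replicates, moderated across genes, and not against spread between replicate cultures. Between 2 libraries, a prior count of 2 was added for log2 fold changes. A call needed 2-fold and at least 10 counts in 1 library, carries no p and has no replicate check. All counting intervals are at 95% and cover counting error only. Those between 2 libraries used the Clopper-Pearson method, with the totals of 17894937 to 18870516 corrected by TMM. For the level of 1 library they are exact Poisson intervals. For differences between states in the change after irradiation they are normal approximations. GC content came from GENCODE M21 transcripts of GRCm38, promoters from RefSeq GRCm38.p6. DESeq2 1.42.0, other scalings, filters, prior counts and thresholds, left-out states and, after seeing the data, removal of a GC trend (lowess) were alternatives. Python 3.11.15 with pandas 2.3.3, numpy 2.4.6, scipy 1.17.1, statsmodels 0.14.6 and matplotlib 3.10.9 did the rest.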

Additional observations from a re-analysis of the deposited data

Results flagged for a closer look

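For 4 genes the change after irradiation had opposite signs in different states, with 1 library on each side and counting intervals that left out 0 on both sides. Jun also differed in sign, at 0.05 in M1 (95% counting interval -0.0554 to 0.159), -0.13 in M0 and -0.16 in M2, but its M1 interval included 0. The difference between states was not tested, and the intervals cover counting error only. For Jund the log2 change in M1 (-0.999) less that in M0 (0.16) was -1.15 (95% counting interval -1.25 to -1.06), and the change in M2 (-0.22) less that in M0 was -0.37 (-0.47 to -0.279). With the GC trend removed, the Jund changes were -0.63 in M1, 0.02 in M2 and 0.10 in M0.

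For Atf3 the change in M1 (-0.88) less that in M0 (0.12) was -0.998 (-1.07 to -0.925), and less that in M2 (0.07) it was -0.95 (-1.02 to -0.882). For Egr1 the change in M1 (0.59) exceeded that in M0 (-0.45) by 1.05 (0.763 to 1.33) and that in M2 (-0.57) by 1.16 (0.876 to 1.45). Junb gave the smallest of these differences, -0.13 (-0.18 to -0.0769) between M2 (-0.07) and M0 (0.06), and with the GC trend removed its changes were 0.11 in M2 and -0.0014 in M0.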

How the results depend on the processing

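No paired analysis was possible because every group has 1 library and the groups share only replicate number 1, so the numbers pair nothing. The irradiation fit itself sets each irradiated library beside the non-irradiated one of its state. Of 207 alternative values of the members' tested fold changes, 187 kept their direction and their side of the threshold, 10 came to pass it, 10 changed sign and 0 ceased to pass. Of 280 between 2 libraries, 206 stayed within the counting interval, 74 moved beyond it and 0 called values changed sign. Each of the 7 members that passed for M1 passed under all 6 alternatives. Scaling by library totals shifts the median of all genes in the M1 fit to -0.36.

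The irradiation fit gave 55 genes. It gave 3 with library totals, 114 with DESeq2, 156 without a filter, 30 at 100 counts in every library, 0 without polarization in the model and 79 to 522 with a state left out. It gave 3 members with DESeq2, beside 0.985% of all genes, and 1 without a filter (Fos, beside 0.98% of all genes). With a state left out it gave 0 to 4, where 4 came from leaving out M1 and RM1, beside 4.56% of all genes. The M2 fit gave 22 genes, 3 with library totals, 41 with DESeq2, 56 without a filter and 1322 without M1 and RM1, with 1 member then (Atf3) beside 11.5% of all genes. Signs turned as follows. For irradiation, Junb (main value -0.01) was at 0.0028 with library totals and from -0.042 to 0.025 with a state left out, Atf3 (-0.23) from -0.40 to 0.10, positive without M1 and RM1, and Egr1 (-0.21) from -0.50 without M1 and RM1 to 0.028 without M2 and RM2. Junb for M1 was at -0.015 with library totals. For M2, library totals gave 0.045 for Fosl2, 0.035 for Junb and 0.047 for Ier3, and leaving out M1 and RM1 gave 0.0035 for Ier3. The cause was not tested.

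Between 2 libraries, a 4-fold threshold left 9 genes in RM0 against M0, 84 in RM1 against M1 and 12 in RM2 against M2. It left 653 of 11778 genes measured in M1 against M0 (1 member, Egr1) and 10 in M2 against M0. In RM1 against RM0 it left 340 of 11713 (0 members), and in RM2 against RM0 34. These are fewer because the threshold is higher. A minimum of 50 counts left 55, 304 and 67 in the irradiation pairs, 38 in M2 against M0 and 104 in RM2 against RM0. DESeq2 size factors gave 1 member in RM1 against M1 (Jund), where 5.34% of all genes passed. They gave 3 in M1 against M0 (without Fos and Fosl2), where 22.4% of all genes passed. Removal of the GC trend, chosen after seeing the data, gave 1 member in RM1 against M1 (Fosl1), where 4.64% of all genes passed, and 4 in RM1 against RM0, where 13.4% did.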
